A study of Schizosaccharomyces pombe with 39 samples.

Results

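The left subtelomere of chromosome II of the fission yeast Schizosaccharomyces pombe was taken as all genes listed on that chromosome with a start up to 100 kb from base 1 of assembly ASM294v2. The 3 deposited tables held 38 such rows. Rows for SPBC1348.04, SPBC1348.05, SPBPB21E7.04c, SPNCRNA.1304, SPBPB10D8.02c and SPNCRNA.1307, and a row of a ght gene, were left out by the rule, which left 31 members of 6745 genes in all. In the reference annotation 20 members were protein-coding, 6 were long non-coding RNAs and 4 were pseudogenes, and SPNCRNA.289 had no entry. From the end inwards, the successive 20 kb windows held 5, 3, 8, 12 and 3 members. Inside the 100 kb limit the last member was SPBPB10D8.04c, which starts at 91376 and had a log2 change of -0.53 at 48 h of depletion. The first listed gene outside the limit was SPNCRNA.291, which starts at 103165 and had a log2 change of 0.78 at that time.

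Chromosome ends of fission yeast are packed into heterochromatin, in which the methyltransferase Clr4 marks histone H3 at lysine 9 and transcription is restrained. Epe1, a JmjC-domain protein, and Mst2, a histone H3 acetyltransferase, are both known to oppose the spread of heterochromatin. Subtelomeres of this yeast carry families of near-identical genes, many of which encode transporters and other proteins used when nutrients change.

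Polyadenylated RNA was sequenced in 39 libraries that form 13 groups of 3, and every strain carried mst2D, a deletion of mst2. In the degron strain epe1 was expressed from the thiamine-repressible nmt81 promoter, with a 3xFLAG tag and an auxin-inducible degron (AID), beside OsTIR1 and AtTIR1 under the adh15 promoter. The depletion treatment, TN, was thiamine with 1-naphthaleneacetic acid. The time course had cultures with 0, 24, 48, 72, 96 and 120 h of TN. The memory experiment had untreated cells, cells after 120 h of TN, cells after a further 24 h or 48 h without TN (recovery), and cells that went through 24 h of recovery and then a second 24 h of TN. The deletion strain was mst2D epe1D, given as biological replicates 1 and 2 with 3 libraries each, which may be technical repeats. All cells grew in EMMC medium at 32C. No strain without the degron was sampled under TN, so the effect of TN itself and of losing Epe1 cannot be told apart. No label says that libraries of a degron group came from separate cultures, so p-values measure the spread between these libraries.

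Promoter windows are printed for 4 members that carry the 4 time profiles described below. Those with a peak at 48 h are eno102, from a moderate level, and SPBPB21E7.10, from a near-zero level. SPBPB21E7.10 overlaps SPBPB21E7.11 and can hold its reads. The others are SPBPB21E7.09 (lower after 120 h in the memory experiment) and SPBPB10D8.01 (a peak at 96 h). Each window runs from 250 bases before to 50 bases after the gene start in RefSeq ASM294v3, 5′ to 3′ on the gene's strand. The RefSeq start lies 14 bases inside the row of the deposited table for eno102, 134 bases inside for SPBPB21E7.10, 119 bases inside for SPBPB10D8.01 and 1223 bases inside for SPBPB21E7.09. Capitals mark the letters GATAAG on either strand, a sequence bound by GATA-type factors, and the windows of eno102 and SPBPB10D8.01 hold none.
eno102 (chrII:59641-59940, minus strand): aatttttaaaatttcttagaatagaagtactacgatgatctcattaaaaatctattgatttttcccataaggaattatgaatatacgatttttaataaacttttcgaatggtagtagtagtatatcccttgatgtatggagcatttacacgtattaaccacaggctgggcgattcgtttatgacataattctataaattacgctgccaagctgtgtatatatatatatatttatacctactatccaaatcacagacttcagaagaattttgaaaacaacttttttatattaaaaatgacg
SPBPB21E7.10 (chrII:61246-61545, plus strand): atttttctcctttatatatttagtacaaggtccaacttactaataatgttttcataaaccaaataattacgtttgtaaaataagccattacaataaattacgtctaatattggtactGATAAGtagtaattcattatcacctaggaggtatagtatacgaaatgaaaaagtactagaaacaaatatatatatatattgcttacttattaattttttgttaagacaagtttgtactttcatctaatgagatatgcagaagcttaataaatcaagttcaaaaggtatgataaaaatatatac
SPBPB21E7.09 (chrII:76046-76345, plus strand): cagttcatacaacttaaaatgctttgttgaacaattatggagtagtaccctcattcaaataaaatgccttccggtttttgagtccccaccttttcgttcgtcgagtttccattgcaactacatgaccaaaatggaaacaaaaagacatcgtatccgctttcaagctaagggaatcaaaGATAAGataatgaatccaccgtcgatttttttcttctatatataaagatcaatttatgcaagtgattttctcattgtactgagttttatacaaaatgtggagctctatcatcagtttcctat
SPBPB10D8.01 (chrII:80768-81067, plus strand): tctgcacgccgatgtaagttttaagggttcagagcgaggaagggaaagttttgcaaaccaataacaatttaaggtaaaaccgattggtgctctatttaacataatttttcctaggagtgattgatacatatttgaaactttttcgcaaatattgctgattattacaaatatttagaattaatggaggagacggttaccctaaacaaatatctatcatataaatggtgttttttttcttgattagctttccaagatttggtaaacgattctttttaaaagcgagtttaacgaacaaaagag

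The letters GATAAG were found on either strand in the windows of 6 of 20 protein-coding members (30%) and of 591 of 5112 protein-coding genes (11.6%). The 6 windows held 5 distinct sites, since the windows of SPBPB21E7.10 and its divergent neighbour SPBPB21E7.02c overlap and share a site. The letters TGACGT, the core bound by factors of the CREB and ATF family, were in 0 of the 20 windows and in 302 of 5112 (5.9%). These are matches of letters, and binding was not measured.

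Counts summed to between 20347886 and 26976973 per library of the time course, 14781022 and 21626064 per memory library, and 20733636 and 27900659 per library of the deletion strain. Levels are given as CPM, a count set against a library total that was scaled by TMM within its own table, so levels of different tables were normalized separately. The libraries of the memory experiment stood apart in how a gene's deviation from its mean over the libraries followed its GC content. The Spearman correlation across 6232 genes lay between -0.583 and 0.665 there, with 0.643 in replicate 3 of 48 h recovery, 0.665 and 0.55 in replicates 2 and 3 of the second depletion and 0.245 in replicate 2 of 24 h recovery. In the time course it lay between -0.151 and 0.15. The row of epe1 had 115 to 138 CPM and 104 to 114 CPM in the libraries labelled as deletion biological replicates 1 and 2, against 313 to 337 CPM before depletion and 166 to 271 CPM after 120 h in the time course. It was thus not at 0 in the libraries labelled epe1D. The row of prl67, a non-coding RNA on the other strand that lies within epe1, held 81.2% to 87.5% of the epe1 count there. It held 73.4% to 89.8% in the time course and 61% to 95.2% in the memory experiment. The share thus does not set the deletion libraries apart. Whether their reads come from prl67 or from a part of epe1 left in place was not tested. The row of mst2 had 70.7 to 96 CPM over all libraries, although every strain is labelled mst2D. It lies almost wholly across sec3 on the other strand, so neither row checks its label. The thiamine-repressed transporter gene thi9 fell at 48 h (log2 change -2.95 ± 0.11 SE, adjusted p = 3.15e-11), and bsu1, another of these, fell by 3.60 on the log2 scale (SE 0.14, adjusted p = 3.15e-11).

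The 27 members listed in the time course were uneven in level before depletion, most of them were higher at 48 h, and most were lower at 120 h than at 48 h. At 48 h, 20 of the 26 members tested were higher than at 0 h and 3 were lower, where 25.6% of 6664 genes were higher and 22.4% lower (edgeR quasi-likelihood test, Benjamini-Hochberg adjusted p under 0.05). At 24 h, 16 were higher and 3 lower, where 20.5% and 17.2% of all genes were. At 72 h, 16 were higher and 0 lower (10.2% and 5.57% of all genes), and at 96 h, 12 were higher and 0 lower (7.56% and 4.94%). At 120 h, 7 were higher and 0 lower, where 6.38% and 7.76% of all genes were. Between 120 h and 48 h, 3 members were higher at 120 h and 15 lower, where 22.1% and 26% of all genes were. The higher calls of SPBPB8B6.05c (log2 change 0.54) and SPBPB10D8.04c (0.56) were lost with plain library totals (adjusted p = 0.0755 and 0.0519). They were also lost over the compared groups alone (0.0786 and 0.0587), as was the lower call of SPBC1348.12 (-0.87, adjusted p = 0.0873). Each of these calls was lost in some fits that left out a library.

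The median log2 change of the tested members was 2.32 after 24 h, 3.52 after 48 h, 2.72 after 72 h, 1.61 after 96 h and 0.55 after 120 h, where the median of all tested genes lay within 0.02 of 0 at each time. Over the 15 tested members that overlap other listed genes by under 10% of their length, it was 1.43 after 24 h, 2.16 after 48 h, 1.88 after 72 h, 1.16 after 96 h and 0.47 after 120 h. The highest mean level came at 48 h for 17 of 27 members, at 96 h for 5, at 0 h for 4 and at 72 h for 1. Peak times were not counted over all genes. The members with a peak at 48 h include the untested SPBPB21E7.05. Those with a peak at 96 h include SPBPB8B6.05c, which was near its 0 h level (44.4 against 42.4 CPM). Of the 26 tested members 12 had fewer than 10 counts in every 0 h library, so they entered the test through later libraries, and with no filter on low counts 23 of 27 were called at 48 h. Reads over an overlap of genes were counted for each gene, and 12 of the 31 members overlap another listed gene. Counted as 25 groups of overlapping members, 20 had a tested member and 18 a called one at 48 h. At the other ends the medians at 48 h were 3.10 over 45 genes at the left end of chromosome I, 2.11 over 39 at its right end and 0.82 over 31 at the right end of chromosome II. Without overlapping genes these medians were 1.53 over 27, 2.92 over 28 and 0.13 over 23 genes, so the order of the ends changed. The other ends kept all their genes, while 7 rows of this end were left out by the rule. No difference between ends was tested.

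**Figure D1:**
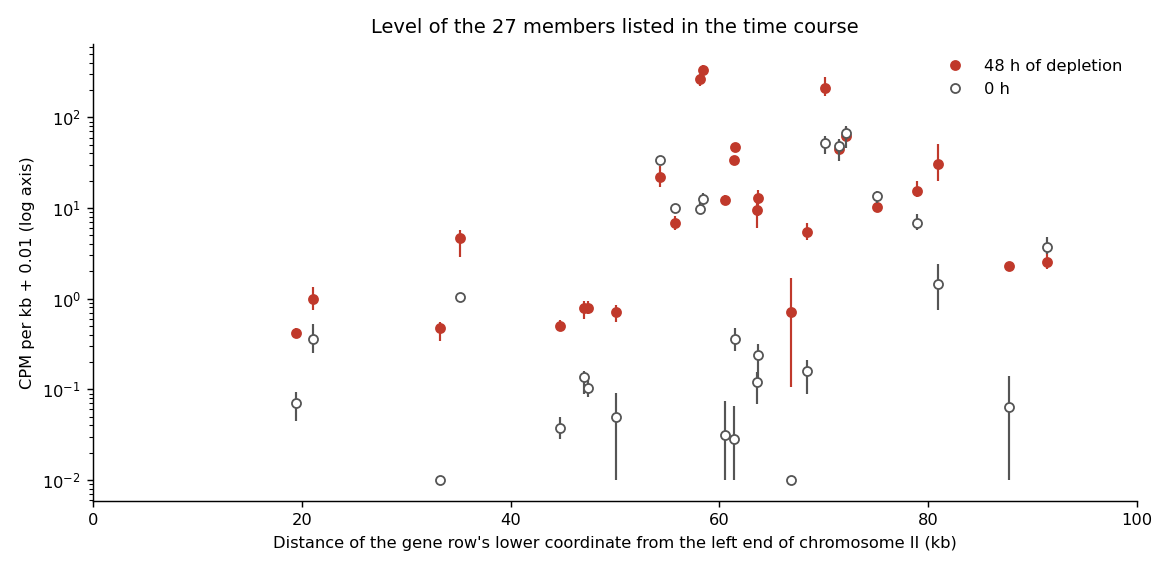
Level per kb of gene length (CPM per kb plus 0.01, log axis) against distance from the end in kb, at 48 h of depletion (filled) and at 0 h (open) of the time course. Points are means of 3 libraries and lines span the lowest to the highest library. Members up to 52 kb lie at or under 1.04 CPM per kb at 0 h, and at 48 h the highest levels, 266 and 336 CPM per kb, belong to eno102 and its antisense row at 58 kb.

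The outermost 22 kb carried 6 members, and their counts were close to 0 in every group. SPBC1348.01, an uncharacterized gene listed in the memory table alone, had up to 16 counts in a library and 0 in 9 of 15 libraries. SPBC1348.02 and SPBC1348.03, which encode proteins with transmembrane helices, and SPBC1348.06c, which encodes a protein with a Vel1p domain, were listed in the deletion table alone. Their highest counts in a library were 6, 2 and 5, and none of these 4 genes was tested. Each of the 6 has a near-identical copy elsewhere in the genome, with 97.3% to 100% identity over the whole gene. How reads shared by copies were counted is not given in the sources used here, and its part in these low counts was not tested.

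SPBC1348.07, an uncharacterized gene at 19 kb, had 13, 11 and 13 counts at 48 h, against 1, 2 and 2 counts at 0 h. The groups did not overlap, and the log2 change was 2.69 ± 0.61 (SE, adjusted p = 0.00212). At 120 h it had 10, 7 and 12 counts, a log2 change of 2.49 ± 0.63 (adjusted p = 0.0144), a call that was lost without replicate 1 of 0 h (2.22, adjusted p = 0.0703) or replicate 3 of 120 h (2.27, adjusted p = 0.0589). The call at 96 h (2.15 ± 0.65, adjusted p = 0.0408) was lost when any 1 of 5 of the 6 libraries was left out. SPNCRNA.287, a non-coding RNA at 21 kb, had a log2 change of 1.46 ± 0.46 at 48 h (adjusted p = 0.0170). Both genes have copies of at least 99.5% identity at other chromosome ends.

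Between 33 kb and 52 kb lay 6 members at low levels, all of which rose at 48 h. SPBC1348.11, a pseudogene, had 14, 20 and 19 counts at 48 h and 0 counts in all 0 h libraries. It was thus at least 5.48-fold higher at 48 h, against a floor of 3 counts per library, which covers counting error only. SPBPB8B6.02c, which encodes a urea transporter, had 26, 29 and 23 counts at 48 h, against 2, 1 and 1 counts at 0 h. Its log2 change was 4.06 ± 0.68 at 48 h (adjusted p = 2.0e-04) and -0.35 ± 1.23 at 120 h (adjusted p = 0.895), where it had 1, 2 and 0 counts.

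SPBC1348.12, a gene for a DNA-binding transcription factor at 35 kb, was also called higher at 96 h and 120 h. It had 4.21, 8.54 and 7.94 CPM at 48 h, against 1.35, 1.63 and 1.61 CPM at 0 h. The log2 change was 2.16 ± 0.36 at 48 h (adjusted p = 2.0e-04), 2.20 ± 0.36 at 96 h (adjusted p = 7.7e-04) and 1.29 ± 0.37 at 120 h (adjusted p = 0.029). The call at 120 h was lost without any 1 of the 0 h libraries or without replicate 3 of 120 h (0.95, adjusted p = 0.151).

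The gene for the acetamidase fah1, the gene for the transcription factor grt1 and the non-coding RNA SPNCRNA.1301 overlap one another between 47 kb and 52 kb. They had log2 changes of 2.63 ± 0.47, 3.04 ± 0.40 and 4.01 ± 0.76 at 48 h, with adjusted p-values of 3.7e-04, 2.3e-05 and 5.6e-04. For grt1 there were 71, 69 and 83 counts at 48 h, against 12, 7 and 6 counts at 0 h. At 120 h it had 17, 9 and 7 counts, and the 120 h and 0 h groups overlapped.

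At 54 kb to 57 kb lay a pair of genes that fell where their neighbours rose. SPBPB8B6.05c, a gene for an L-asparaginase, which releases ammonium from asparagine, had 36.6, 21.3 and 24.8 CPM at 48 h, against 42.6, 39.7 and 44.8 CPM at 0 h. The groups did not overlap, and the log2 change was -0.62 ± 0.21 (adjusted p = 0.0235). The call was lost without replicate 1 (adjusted p = 0.0509) or 3 (0.065) of 0 h, or without replicate 2 (0.111) or 3 (0.0912) of 48 h. SPBPB8B6.06c, which encodes the plasma membrane fluoride export channel Fex2, had 11, 8.84 and 7.85 CPM at 48 h, against 12.4, 14.1 and 14.5 CPM at 0 h (log2 change -0.57 ± 0.16, adjusted p = 0.00876). Copies at the left end of chromosome I match SPBPB8B6.05c at 95.3% identity and 75.7% of SPBPB8B6.06c at 99.9%.

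Between 58 kb and 69 kb lay the region of eno102 and its neighbours, where every tested member was higher at 24, 48 and 72 h. The gene eno102 encodes an enolase, an enzyme of glycolysis. It averaged 15.3 ± 2.56 CPM (SD, n = 3 at each time) before depletion, 169 ± 48.0 CPM after 24 h and 418 ± 66.8 CPM after 48 h. It then averaged 129 ± 28.3 CPM after 72 h, 47.0 ± 13.3 CPM after 96 h and 22.6 ± 1.82 CPM after 120 h. All libraries of 24 h to 120 h lay above all 0 h libraries, and the highest level, at 48 h, stood apart from every other time. The log2 change was 4.77 ± 0.27 at 48 h (adjusted p = 3.3e-09) and 0.56 ± 0.24 at 120 h (adjusted p = 0.153). The antisense row SPNCRNA.1302, which lies inside eno102, held between 98.6% and 100% of the counts of eno102 in every library, so the strands were not separated and it is no separate measurement.

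SPBPB21E7.02c, whose product belongs to the phosphoglycerate mutase and 6-phosphofructo-2-kinase family, had 193, 179 and 212 counts at 48 h, against 1, 0 and 0 counts at 0 h. The ratio of levels was 540, with a 95% exact interval from counting of 96.6 to 21369. By 120 h it had 9, 3 and 2 counts, and the call at that time (log2 change 3.43 ± 0.98, adjusted p = 0.029) was lost without replicate 2 or 3 of 0 h (adjusted p = 0.107 and 0.0831) or replicate 1 of 120 h (0.136). The divergent uncharacterized gene SPBPB21E7.10, whose promoter window overlaps that of SPBPB21E7.02c, had 682, 617 and 639 counts at 48 h, against 1, 0 and 0 counts at 0 h. The ratio was 1792, with a 95% exact interval of 321 to 70831. At 120 h it still had 13, 13 and 9 counts (log2 change 4.73 ± 1.02, adjusted p = 0.0053). Over 21 libraries SPBPB21E7.10 held 8% to 38.6% (median 24.3%) of the count of SPBPB21E7.11, in which most of it lies. How many of its reads come from SPBPB21E7.11 was not tested.

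SPBPB21E7.11, an uncharacterized gene on the other strand that overlaps 78.6% of SPBPB21E7.10, had 64.7, 76.1 and 81.5 CPM at 48 h, against 0.72, 0.398 and 0.504 CPM at 0 h. The log2 change was 7.09 ± 0.35 at 48 h (adjusted p = 8.3e-10). At 120 h it had 2.55, 2.74 and 2.63 CPM, above every 0 h library, with a log2 change of 2.28 ± 0.41 (adjusted p = 0.0014). SPNCRNA.1303 and the nested SPNCRNA.289 rose by 6.36 ± 0.62 and 5.76 ± 0.65 on the log2 scale at 48 h, and the pseudogene SPBPB21E7.06 by 5.11 ± 0.49 (adjusted p = 1.3e-06, 5.7e-06 and 9.7e-07). SPBPB21E7.05, an uncharacterized gene, had 1, 3 and 15 counts at 48 h and 0, 1 and 2 at 72 h, was at 0 in the other libraries of the time course and was not tested.

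Between 70 kb and 80 kb the members were abundant before depletion and varied among libraries of a group. The gene aes1, annotated to the phenazine biosynthesis family, had 320, 219 and 198 CPM at 48 h, against 72.4, 60.9 and 45.7 CPM at 0 h. The groups did not overlap (log2 change 2.04 ± 0.64, adjusted p = 0.0174), and the call was lost without replicate 3 of 0 h (1.88, adjusted p = 0.0631). At 120 h it had 305 CPM in replicate 1 but 47.4 and 53.1 CPM in replicates 2 and 3. The change between 120 h and 48 h was -0.86 ± 0.62 (adjusted p = 0.263). It was -1.21 with the replicate number as a block (adjusted p = 0.0264), and -2.29 without replicate 1 of 120 h (adjusted p = 0.00307).

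Replicate 1 of 120 h also stood apart at the adjacent genes. For aes1, SPNCRNA.1305 and SPBPB21E7.09, replicate 1 was the highest library at 48, 72 and 96 h as well. SPNCRNA.1305 had 104, 72.6 and 73.9 CPM at 48 h, 77.2, 38.1 and 27.8 CPM at 72 h, and 89.1, 41.8 and 26.7 CPM at 96 h. Values without replicate 1 of 120 h keep replicate 1 at the other times. The pseudogene SPBPB21E7.08 and its antisense row SPNCRNA.1305 share their reads, the antisense row holding 98% to 103% of the count of the pseudogene. SPNCRNA.1305 had 86.7, 15.1 and 18.1 CPM at 120 h, against 98, 106 and 60.5 CPM at 0 h. Its log2 change of -1.15 ± 0.60 did not pass the test (adjusted p = 0.242). SPBPB21E7.09, a gene for an L-asparaginase with a copy of 96.3% identity over 92.9% of its length on chromosome I, had 29.3, 9.84 and 11.2 CPM at 120 h, against 35.5, 39.5 and 29.2 CPM at 0 h.

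The log2 change of SPBPB21E7.09 at 120 h was -1.05 ± 0.39 (adjusted p = 0.0886), and -1.72 without replicate 1 of 120 h (adjusted p = 0.00501). It was called lower by DESeq2 (-1.05, adjusted p = 0.0375) and with the replicate number as a block (-1.17, adjusted p = 0.00835). At 96 h it was -0.84 ± 0.38 (adjusted p = 0.173), and with the block -0.93 (adjusted p = 0.0288). At 72 h it was -0.92 ± 0.39 (adjusted p = 0.117), and with the replicate number as a block -0.98 (adjusted p = 0.0198). Between 120 h and 48 h it was -0.65 ± 0.39 (adjusted p = 0.179), with the block -0.74 (adjusted p = 0.0324), and without replicate 1 of 120 h -1.32 (adjusted p = 0.00873). SPNCRNA.1306, a non-coding RNA at 79 kb, had 25, 16.3 and 16.7 CPM at 48 h, against 7.12, 7.80 and 10.6 CPM at 0 h (log2 change 1.19 ± 0.44, adjusted p = 0.0376).

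Beyond 80 kb the peak came later. SPBPB10D8.01, a gene for a cysteine transporter, averaged 3.55 ± 2.15 CPM (SD, n = 3 at each time) before depletion, 118 ± 55.1 CPM after 24 h and 75.6 ± 44.2 CPM after 48 h. It then averaged 122 ± 49 CPM after 72 h, 365 ± 29.0 CPM after 96 h and 102 ± 41.5 CPM after 120 h. The libraries of 96 h, at 332, 381 and 383 CPM, lay above those of every other time, while 24, 48, 72 and 120 h overlapped. The log2 change was 6.72 ± 0.61 at 96 h (adjusted p = 2.9e-06) and 4.87 ± 0.57 at 120 h (adjusted p = 4.2e-05). The pseudogene SPBPB10D8.03 at 88 kb followed, with 278, 234 and 342 counts at 96 h and 119, 188 and 194 counts at 120 h, against 4, 1 and 0 counts at 0 h. Its log2 change was 7.23 ± 0.43 at 96 h (adjusted p = 1.3e-08) and 6.58 ± 0.44 at 120 h (adjusted p = 5.7e-08), and it was higher at 120 h than at 48 h (1.32 ± 0.26, adjusted p = 8.0e-04).

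SPBPB10D8.04c, a transporter gene at 91 kb, had 3.21, 3.60 and 2.61 CPM at 24 h, against 7.12, 4.58 and 4.79 CPM at 0 h (log2 change -0.81 ± 0.20, adjusted p = 0.0064). At 96 h it had 9.12, 9.98 and 10.1 CPM, above all 0 h libraries, with a log2 change of 0.82 ± 0.19 (adjusted p = 0.0105) that was not called without replicate 2 of 0 h (0.70, adjusted p = 0.0602). A sequence at 94 kb to 96 kb matches 82.5% of this gene at 100% identity, and no listed gene lies there. The change at 48 h, -0.53 ± 0.20 (adjusted p = 0.0402), was not called without replicate 1 of 0 h (adjusted p = 0.241) or replicate 2 (0.127) or 3 (0.159) of 48 h, with plain library totals (0.0804), or over the compared groups alone (0.111).

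**Figure D2:**
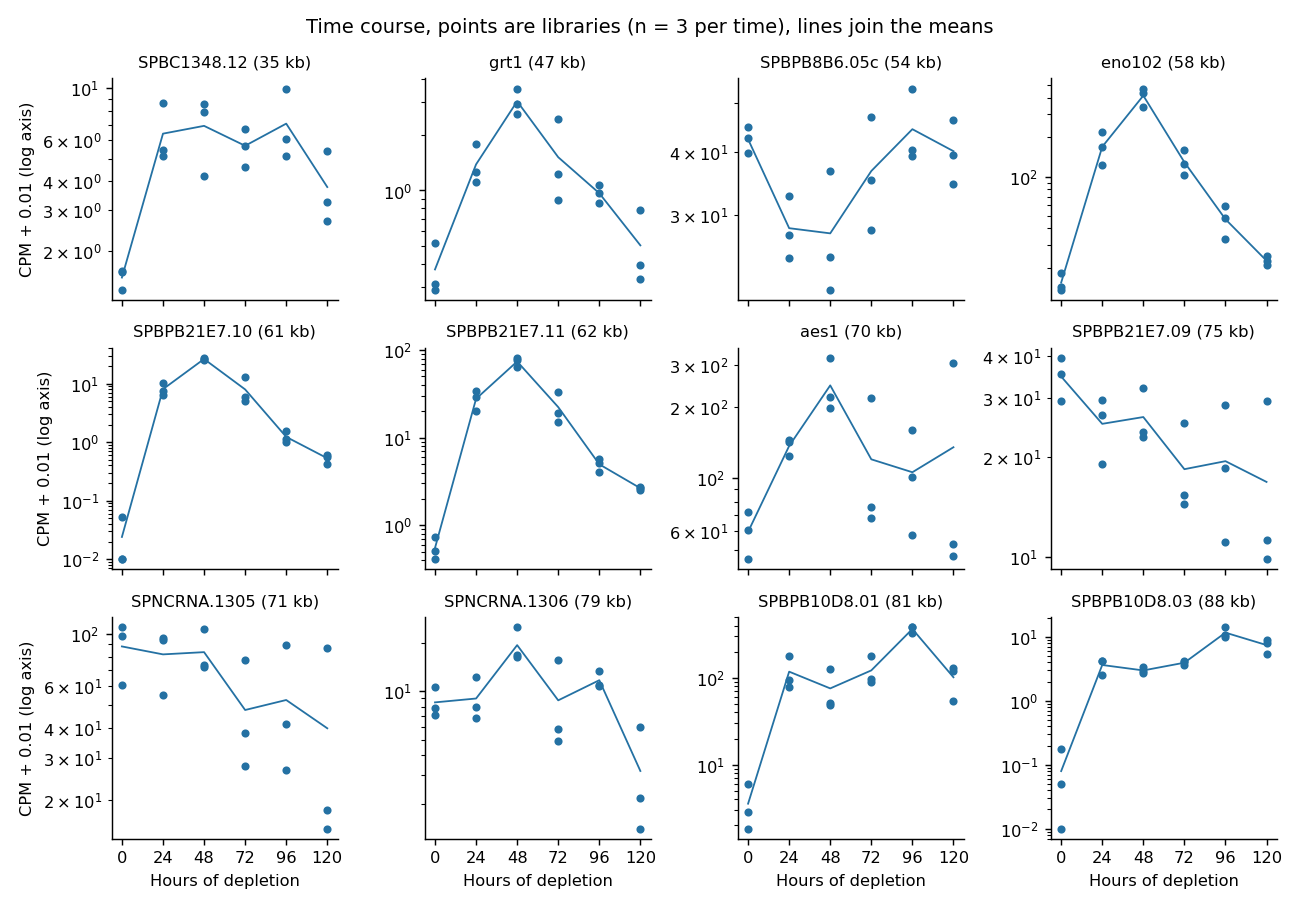
Level (CPM plus 0.01, log axis) of 12 members over 0, 24, 48, 72, 96 and 120 h of depletion, points being libraries (n = 3 per time) and lines joining the means. Panels run from 35 kb to 88 kb from the end, with eno102, SPBPB21E7.10 and SPBPB21E7.11 highest at 48 h, SPBPB10D8.01 and SPBPB10D8.03 highest at 96 h, and aes1, SPBPB21E7.09 and SPNCRNA.1305 spread between libraries at 120 h.

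Grouped by role, the members moved at 48 h as follows. Of 3 genes with a product named as a transporter, 2 rose (SPBPB8B6.02c and SPBPB10D8.01) and SPBPB10D8.04c fell, with a median log2 change of 4.06. The membrane channel gene SPBPB8B6.06c, which fell (-0.57), was not on this list and is counted with the other protein-coding members. Of 4 genes for the use of nitrogen compounds, SPBPB8B6.02c and fah1 rose, SPBPB8B6.05c fell and SPBPB21E7.09 did not pass the test (median 1.11). Of 7 non-coding RNA rows 6 were called higher (median 4.01), but SPNCRNA.1301, SPNCRNA.1302, SPNCRNA.1303 and SPNCRNA.289 overlap another listed gene and can hold its reads. The 2 that overlap none, SPNCRNA.287 and SPNCRNA.1306, were both called (median 1.32). Of 4 pseudogenes 3 rose (median 5.19). Of 14 other protein-coding members 9 were tested, 8 rose and 1 fell (median 3.04). At that time 25.6% of all genes were higher and 22.4% lower, with a median of 0. No role was tested against the rest. A list of 4 tandem transporter copies had SPBPB10D8.04c as its one measured member, and no member was on a list of cell surface genes. The galactose genes gal1, gal7 and gal10, which lie at the right end of chromosome II and are not members, rose at 48 h by 1.96 ± 0.32, 0.82 ± 0.24 and 2.44 ± 0.30 on the log2 scale (adjusted p = 1.9e-04, 0.0102 and 1.3e-05).

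**Figure D3:**
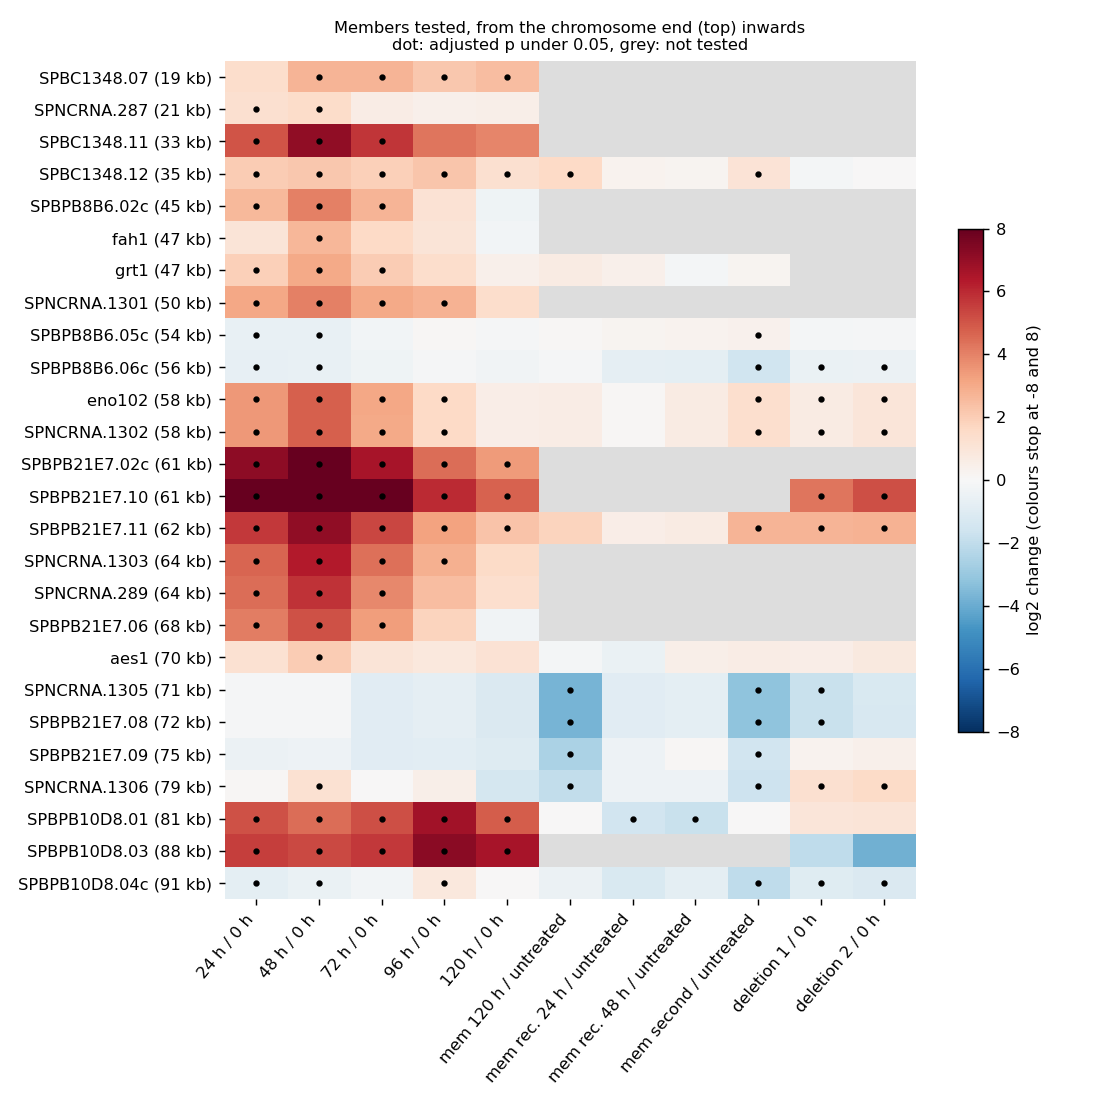
Log2 change of the 26 tested members, ordered from the chromosome end (top) inwards with the distance in kb, in 11 comparisons, each named as its group over the group it is set against (mem is the memory experiment, rec. recovery, second the second depletion). Red is higher, blue lower, dots mark an adjusted p under 0.05 and grey marks members that were not tested. The red block at 58 kb to 68 kb is deepest at 48 h, and the blue cells at 71 kb to 79 kb stand under memory 120 h and second depletion.

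In the memory experiment 19 members were listed and 14 tested. Of the 7 members called at 120 h of the time course, 4 were not tested here. After 120 h, 1 of the 14 tested members was higher and 4 were lower than in untreated cells, where 2.62% of 6485 genes were higher and 3.53% lower. The 4 that fell were the adjacent members at 71 kb to 80 kb. SPNCRNA.1305 had 17.4, 6.28 and 14.3 CPM after 120 h, against 174, 153 and 172 CPM in untreated cells. The groups were far apart, with a log2 change of -3.71 ± 0.49 (adjusted p = 2.2e-04), and the pseudogene SPBPB21E7.08, which shares its reads, changed by -3.72 ± 0.49.

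SPBPB21E7.09 had 7.37, 4.08 and 8.26 CPM after 120 h, against 39.5, 35.6 and 41.2 CPM in untreated cells (log2 change -2.56 ± 0.26, adjusted p = 2.7e-05). SPNCRNA.1306 had 3.32, 2.89 and 3.17 CPM after 120 h, against 10.1, 11.8 and 14.7 CPM in untreated cells (-1.96 ± 0.30, adjusted p = 8.4e-04). In both, the groups did not overlap. The member that rose was SPBC1348.12, which was also called at 120 h of the time course, with 1.00, 1.70 and 2.63 CPM after 120 h and 0.487, 0.476 and 0.777 CPM in untreated cells (1.61 ± 0.38, adjusted p = 0.0206). This call was lost without replicate 2 (adjusted p = 0.0526) or 3 (0.114) of 120 h, or without replicate 1 (0.105) or 2 (0.108) of untreated cells, and with plain library totals (0.0601). The adjacent aes1 had a log2 change of -0.16 ± 0.30 and SPBPB10D8.01 of 0.03 ± 0.22 (adjusted p = 0.96 and 0.99). The log2 change of eno102, 0.58 ± 0.18, did not pass the test (adjusted p = 0.0763). Some other settings called eno102 higher, among them DESeq2 (0.59, adjusted p = 0.00992) and the compared groups alone (0.59, adjusted p = 0.0315).

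After 24 h of recovery the same 4 members were higher than after 120 h of depletion, and SPBPB10D8.01 was lower. These were all of the 14 that were called, where 2.28% of all genes were higher and 2.45% lower. SPBPB21E7.09 had 39, 18.4 and 30.7 CPM after 24 h of recovery, all above the libraries of 120 h (log2 change 2.16 ± 0.26, adjusted p = 1.5e-04). SPNCRNA.1305 was higher by 2.79 ± 0.47 (adjusted p = 0.0026), although its 24 h recovery libraries spread from 35.3 to 148 CPM. Against untreated cells, 0 members were higher and 1 lower after 24 h of recovery (0.925% and 2.11% of all genes), and 0 were higher and 1 lower after 48 h (1.42% and 1%). In both cases the lower member was SPBPB10D8.01. After 48 h the count was 4 by DESeq2, which also called eno102 (0.64, adjusted p = 0.00846), SPNCRNA.1302 (0.64, adjusted p = 0.00952) and SPBPB8B6.05c (0.29, adjusted p = 0.0111) higher. SPBPB10D8.01 had 2.56, 4.22 and 4.35 CPM after 24 h of recovery and 2.56, 2.87 and 3.82 CPM after 48 h. In untreated cells it had 9.1, 10.4 and 12.3 CPM. The log2 changes were -1.51 ± 0.23 (adjusted p = 0.0023) and -1.79 ± 0.23 (adjusted p = 0.0012).

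After the second depletion 5 of the 14 members were higher than in untreated cells and 6 lower, where 22.7% and 22% of all genes were. SPNCRNA.1305 had 16.1, 27 and 12.4 CPM after the second depletion, against 174, 153 and 172 CPM in untreated cells (log2 change -3.20 ± 0.48, adjusted p = 4.8e-04). SPBPB21E7.09 had 12.1, 14.7 and 13.3 CPM, also below all untreated libraries (-1.54 ± 0.26, adjusted p = 0.0010). The others that fell were SPBPB21E7.08, SPNCRNA.1306, SPBPB8B6.06c and SPBPB10D8.04c, at -3.21 ± 0.48, -1.66 ± 0.30, -1.61 ± 0.42 and -2.03 ± 0.59. The call of SPBPB10D8.04c was lost without replicate 3 of untreated cells (-1.76, adjusted p = 0.057).

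Among those that rose after the second depletion, eno102 had 18.4, 15.1 and 17.3 CPM, against 7.20, 6.52 and 6.21 CPM in untreated cells (log2 change 1.35 ± 0.18, adjusted p = 1.7e-04). SPBPB21E7.11 had 1.39, 1.07 and 0.609 CPM after the second depletion, against 0.195, 0.0952 and 0.155 CPM in untreated cells (2.74 ± 0.57, adjusted p = 0.0038). SPNCRNA.1302 shares the reads of eno102. The other calls were SPBC1348.12 (1.10 ± 0.40, adjusted p = 0.0404), lost without replicate 1 or 2 of untreated cells or replicate 1 or 3 of the second depletion, with plain library totals (adjusted p = 0.166) and over the compared groups alone (0.0764), and SPBPB8B6.05c (0.32 ± 0.08, adjusted p = 0.01), which was at 0.05 with plain library totals (adjusted p = 0.848) and, likewise, with offsets for GC content and a replicate block (adjusted p = 0.787), and was not called over the compared groups alone (0.0637). The correlation with GC content lay between 0.01 and 0.665 in libraries of the second depletion, against -0.515 to -0.459 in those of untreated cells. With those offsets SPBPB21E7.09 was at -1.58 and eno102 at 1.32 (adjusted p = 5.3e-04 and 1.7e-04). SPBPB10D8.04c was at -1.54 (adjusted p = 0.0169), in place of -2.03. SPBPB10D8.04c and SPBPB8B6.06c were lowest of their recovery groups in replicate 2 of 24 h (0.845 and 3.02 CPM) and replicate 3 of 48 h (1.23 and 2.59 CPM). Those libraries had the highest correlations with GC content of their groups, 0.245 and 0.643. Whether the falls of these genes follow GC content was not tested.

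**Figure D4:**
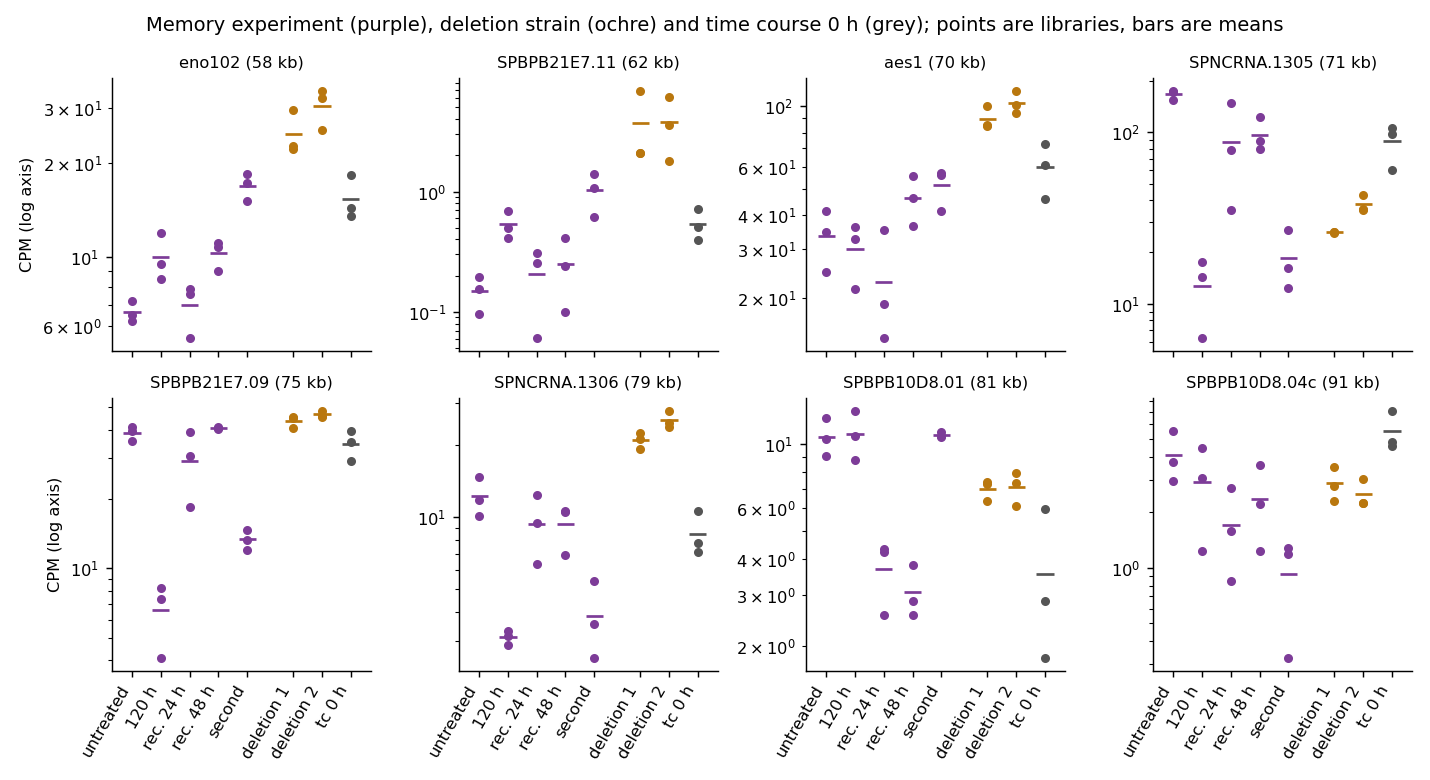
Level (CPM, log axis) of 8 members in the 5 groups of the memory experiment in order of sampling (purple), the deletion strain (ochre) and the 0 h group of the time course (grey), each table scaled on its own. Points are libraries (n = 3 per group) and bars are means. SPNCRNA.1305, SPBPB21E7.09 and SPNCRNA.1306 are low after 120 h and after the second depletion, and SPBPB10D8.01 is low in both recovery groups.

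The strain labelled mst2D epe1D was set against time course libraries of 0 h and 120 h, with 15 members tested. No undeleted control from the same table was used, so effects of the deletion and of the experiment cannot be told apart. Cells at 120 h were also under TN, and thi9 was higher in the deletion strain than in them (log2 change 3.38 ± 0.08 SE). In biological replicate 1, 5 members were higher and 4 lower than at 0 h, where 17.2% and 15.6% of 6581 genes were. In biological replicate 2, 5 were higher and 2 lower, where 16.5% and 14.8% were. The level of eno102 was 22.7, 22.2 and 29.5 CPM in biological replicate 1 and 25.4, 33.9 and 32.1 CPM in biological replicate 2, against 18.2, 13.5 and 14.3 CPM at 0 h. The groups did not overlap, with log2 changes of 0.65 ± 0.15 and 0.96 ± 0.15 (adjusted p = 0.0053 and 4.6e-04), and SPNCRNA.1302 shares these reads.

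SPBPB21E7.11 rose by 2.69 ± 0.63 and 2.79 ± 0.63 on the log2 scale in biological replicates 1 and 2 against 0 h (adjusted p = 0.0073 and 0.0064). SPBPB21E7.10 had 8, 8 and 13 counts in biological replicate 1 and 9, 34 and 6 in biological replicate 2, against 1, 0 and 0 counts at 0 h (adjusted p = 0.0148 and 0.0031). The first call was lost without replicate 2 of 0 h (adjusted p = 0.0557). These counts can hold reads of SPBPB21E7.11. SPNCRNA.1306 rose by 1.28 ± 0.32 and 1.56 ± 0.32 (adjusted p = 0.0114 and 0.0043). SPBPB10D8.04c fell by 0.98 and 1.17 on the log2 scale (SE 0.22 each, adjusted p = 0.0042 and 0.0017), and SPBPB8B6.06c fell by 0.55 and 0.48 (SE 0.14 each, adjusted p = 0.0080 and 0.018). SPNCRNA.1305 and SPBPB21E7.08 were called lower in biological replicate 1 (-1.79 ± 0.59 and -1.81 ± 0.60, adjusted p = 0.0463 and 0.0470), and in biological replicate 2 had -1.25 ± 0.58 and -1.26 ± 0.59 (adjusted p = 0.14 each). SPBPB10D8.01 had log2 changes of 0.98 ± 0.47 and 1.01 ± 0.47 (adjusted p = 0.14 and 0.13), which were 1.53 and 1.56 without replicate 3 of 0 h (adjusted p = 0.0419 and 0.0411).

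Against 120 h of depletion, the mean of both deletion groups was higher for 2 members and lower for 4, where 20.7% and 21.7% of all genes were. SPBPB10D8.01 had 6.12 to 7.95 CPM over the 6 deletion libraries, against 54.0, 121 and 130 CPM at 120 h (log2 change -3.88 ± 0.30, adjusted p = 6.5e-06). SPBPB10D8.03 had 1, 0 and 0 counts in biological replicate 1 and 0 in each library of biological replicate 2, against 119, 188 and 194 counts at 120 h (adjusted p = 8.5e-08). SPBC1348.12 and SPBPB10D8.04c were lower, with log2 changes of -1.34 ± 0.22 and -1.11 ± 0.18 (adjusted p = 3.7e-04 and 3.9e-04). SPNCRNA.1306 and SPBPB21E7.09 were higher, at 2.84 ± 0.34 and 1.39 ± 0.30 (adjusted p = 6.8e-05 and 0.0049). For SPBPB21E7.09 the call was lost when the libraries of each biological replicate were summed (adjusted p = 0.0547). For aes1 the value was -0.53 ± 0.54 (adjusted p = 0.460), and without replicate 1 of 120 h it was 0.90 (adjusted p = 0.00203).

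The starting levels of the degron experiments were not alike. Of 18 members tested in both tables, 1 was higher and 4 were lower in untreated cells of the memory experiment than at 0 h of the time course, where 20.4% of 6528 genes were higher and 20.5% lower. SPBPB10D8.01 was the higher one, with 9.1, 10.4 and 12.3 CPM in those cells, against 1.82, 2.87 and 5.95 CPM at 0 h (log2 change 1.79 ± 0.46, adjusted p = 0.0027). The lower ones were SPBC1348.12, eno102, SPNCRNA.1302 and SPBPB21E7.11, at -1.21 ± 0.42, -1.02 ± 0.23, -1.02 ± 0.23 and -1.65 ± 0.60. The calls of SPBC1348.12 and SPBPB21E7.11 were lost without replicate 2 of untreated cells (adjusted p = 0.0727 and 0.102). That of SPBC1348.12 was also lost without replicate 1 of untreated cells (0.0701) or replicate 2 of 0 h (0.0524), and that of SPBPB21E7.11 without replicate 3 of untreated cells (0.0626) or replicate 1 of 0 h (0.116). The 120 h effect, each experiment against its own untreated cells, was larger in memory than in the time course for 0 members and smaller for 1, where 1.93% and 1.88% of all genes were. That member was SPBPB10D8.01, whose effect differed by -4.82 ± 0.60 on the log2 scale (adjusted p = 1.7e-05). For SPNCRNA.1305, SPBPB21E7.08 and SPBPB21E7.09 the difference was -2.55 ± 0.79, -2.56 ± 0.80 and -1.49 ± 0.50, with adjusted p-values of 0.0723, 0.0731 and 0.0968.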

How the data were processed

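The authors deposited raw counts in 3 tables of genes (6711, 6544 and 6684 rows), whose columns are counts per the file headers. Per the submitters' processing notes, Trimmomatic and STAR were used with build ASM294v2, and versions, the counting tool, strand and the handling of reads with several matches are not given in the sources used here. There were 6 count columns that matched no labelled library, and these were not used. Titles set the groups, also where the treatment label of a second-depletion library read otherwise. Of 6626 matched identifiers 6594 share a start or an end with RefSeq ASM294v3.

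Tests used the edgeR package, version 4.0.16, under R 4.3.3 (TMM scaling, filterByExpr, robust quasi-likelihood F-tests, 2-sided, Benjamini-Hochberg over all genes of a comparison), in 16 comparisons from 4 fits: the time course (18 libraries), the memory experiment (15), the deletion strain with 0 h and 120 h (12), and both degron experiments (33). The test was checked on simulated data. Copies were searched with BLAST 2.17.0. Intervals and floors cover counting error only. No 2 libraries of a group were alike within sampling noise (lowest chi-squared over degrees of freedom 3.59).

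The members and role lists were chosen with earlier results of these data known. Values are given for a set of up to 2 members per 20 kb window by level and 3 by change with at least 1 CPM, and otherwise for every member. Among the pairs of groups that were compared, same-numbered libraries deviated together (each pair's correlation over 0.1) between 72 h and 0 h (lowest 0.14), 120 h and 48 h (0.33), and 48 h recovery and untreated cells (0.11), so blocked values stand beside those results where a call changed. Alternatives were DESeq2 1.42.0, other scalings, no filter, a replicate block, GC offsets, fits of the compared groups alone, a 2-fold minimum and leaving out each library. Leaving replicate 2 of the second depletion out of the shared spread was chosen after seeing the data.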

Additional observations from a re-analysis of the deposited data

Results flagged for a closer look

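The 120 h effect on SPBPB10D8.01 differed between the degron experiments by a test of the difference itself (memory minus time course -4.82 on the log2 scale, SE 0.60, edgeR adjusted p = 1.7e-05). In the memory experiment it had 8.79, 13 and 10.7 CPM after 120 h, against 9.1, 10.4 and 12.3 CPM in untreated cells. In the time course it had 54.0, 121 and 130 CPM at 120 h, against 1.82, 2.87 and 5.95 CPM at 0 h. All 3 libraries of 120 h in the time course lay above all 0 h libraries, while the groups of the memory experiment overlapped.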

How the results depend on the processing

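Of the single-gene results, 1 changed sign: aes1 in the deletion strain against 120 h, at -0.53 over all libraries and from -0.93 to 0.90 when 1 library was left out, the last without replicate 1 of 120 h. The count of members called at 120 h was 11 with the replicate block, in place of 7. After 48 h recovery it was 4 by DESeq2, 4 with replicate 2 of the second depletion left out of the shared spread and 3 over the compared groups alone, in place of 1. For 24 h recovery against 120 h it was 3 over the compared groups alone, in place of 5. In deletion biological replicate 1 it was 2 with the replicate block and 5 with a 2-fold minimum, in place of 9, and in biological replicate 2 it was 4 and 4, in place of 7. For untreated memory cells against 0 h it was 9 over the compared groups alone, in place of 5, and for the difference of 120 h effects 4 with the replicate block and 4 by DESeq2, in place of 1. Other counts stayed within 1.5 times under these settings. Among comparisons within an experiment, same-numbered libraries deviated together only for 72 h, 120 h against 48 h and 48 h recovery. They also did so between 72 h and 48, 96 and 120 h (lowest correlation 0.42, 0.23 and 0.45), pairs that were not compared. The same held between 24 h and 96 h (0.18). Between experiments the replicate numbers are names that pair nothing. The cause of the moves in these counts was not tested.

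Leaving out each library gave 15 to 19 called members at 24 h, 19 to 22 at 48 h, 13 to 16 at 72 h, 8 to 10 at 96 h, 5 to 10 at 120 h and 15 to 19 between 120 h and 48 h. In the memory experiment it gave 4 to 5 after 120 h, 1 to 1 in either recovery, 10 to 11 after the second depletion and 5 to 6 for 24 h recovery against 120 h. It gave 6 to 8 and 6 to 7 in the deletion replicates and 7 to 9 against 120 h. For untreated cells it gave 3 to 5 (3 without their replicate 2, in place of 5). For the difference of effects it gave 1 to 3 (3 without replicate 2 of 120 h of the time course, in place of 1). The count over all libraries lay above its range at 48 h (23), at 96 h (12) and in deletion biological replicate 1 (9). For the deletion strain against 120 h it lay below its range, at 6.

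Leaving out overlapping members, the median log2 change at 48 h was -0.57 over 3 members at 40 to 60 kb, in place of 3.52 over 8, and 2.04 over 5 at 60 to 80 kb, in place of 5.11 over 11. The 3 left were SPBPB8B6.02c, SPBPB8B6.05c and SPBPB8B6.06c. Counts were low in the outer 22 kb and, at 0 h, in the members under 10 counts, which limits the precision of their values. With the replicate number as a block, eno102 was at 0.28 (adjusted p = 0.26) in deletion biological replicate 1, and SPBPB21E7.11 at 1.66 and 1.78 (adjusted p = 0.183 and 0.178) in biological replicates 1 and 2, against 0 h. There SPBPB21E7.10 was at 3.53 and 4.24 (adjusted p = 0.158 and 0.1). SPBPB10D8.01 was called higher, at 1.73 and 1.75 (adjusted p = 0.00244 and 0.00296). Against 120 h, the block left SPBC1348.12 (-0.98, adjusted p = 0.0773) and SPBPB21E7.09 (0.93, adjusted p = 0.137) not called.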
